A study of Mus musculus with 4 samples.

Results

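Trypsin and pancreatin are digestive enzymes that loosen the contacts between embryonic tissue layers, and the series compares them, in effect, with dissection by hand in the same tissues. The comparison described here sets the 2 samples numbered 2, separated by enzyme digestion and mechanical dissection, against the 2 samples numbered 1, separated mechanically, and it uses all 4 samples of the series. Each dissection was applied to 1 sample of foregut endoderm and 1 sample of heart mesoderm pooled with mesoderm and ectoderm of the head, called mesoderm/ectoderm below. All came from ARC/s mouse embryos at embryonic day 8.5 with 4 to 5 somites, and 15 to 20 tissue pieces were pooled per sample. RNA was amplified in 2 rounds and hybridized to Affymetrix mouse MOE430 arrays. The work was done as 2 experiments, so experiment and dissection cannot be told apart. The series' design text describes the enzyme digestion without naming an experiment, and 1 description field calls foregut endoderm 2 ectoderm, against its title and tissue label. Of 45101 probe sets, 13288 exceeded a log2 intensity of 5 on at least 2 of the 4 arrays. These represent 7802 genes when the probe set with the highest mean stands for each gene.

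The anterior intestinal portal is the opening of the forming foregut, where an epithelial sheet of endoderm lies directly against the heart-forming mesoderm. Head mesenchyme, neural plate, endothelium and blood-forming cells lie close by, so a small shift of the cut can carry another cell type into a piece. Cells freed by enzymes are also known to switch on immediate early and heat shock genes while they are held at warm temperature. The gene classes below were chosen to cover the housekeeping machinery, these stress responses, the cell surface and matrix, and the cell types near the cut. They were chosen with earlier results of these data known, so their shares beside those of all genes are a description.

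In every tissue the log2 intensity of the sample numbered 1 was subtracted from that of the sample numbered 2. A difference of 1 is 2-fold and a difference of 2 is 4-fold. Each tissue holds 1 sample per dissection, so a difference within a tissue has no replicate check. The difference shared by both tissues was tested with limma with tissue as a term, which leaves 1 residual degree of freedom. Its p-values and standard errors measure only the spread between these 4 arrays. For each probe set that spread is how far the differences in the 2 tissues disagree. A difference present in 1 tissue only therefore counts as noise in this fit.

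The mechanically dissected samples went against their tissue labels in the heart genes. Myl7, an atrial myosin light chain, measured 9.74 (log2 intensity) in foregut endoderm 1, 4.72 in foregut endoderm 2, 2.44 in mesoderm/ectoderm 1 and 14.74 in mesoderm/ectoderm 2. Myh6, a cardiac myosin heavy chain, measured 10.08, 5.36, 4.18 and 13.84 in the same order. The sample labelled foregut endoderm 1 therefore carried heart muscle transcripts, and the sample labelled mesoderm/ectoderm 1 carried them near the bottom of the scale. The endoderm labels held in both dissections: Foxa1, an endodermal pioneer factor, measured 10.92 and 10.82 in foregut endoderm 1 and 2 against 4.13 and 4.89 in mesoderm/ectoderm 1 and 2. The neural marker Emx2 measured 7.07 and 6.87 in mesoderm/ectoderm 1 and 2 and 2.25 and 2.27 in foregut endoderm 1 and 2. Other neural genes, such as Sox1 and Hes5 below, were not that low in foregut endoderm 1. The median intensity of the 17 measured neural genes was 4.92 and 3.53 in foregut endoderm 1 and 2 and 7.99 and 7.19 in mesoderm/ectoderm 1 and 2. In bulk samples, fewer cells of a type and less RNA per cell cannot be told apart.

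The control probe sets also separated the dissections in both tissues. The intensity at the 3′ end of Gapdh exceeded that at its 5′ end by 6.45 and 7.04 log2 units in foregut endoderm 1 and mesoderm/ectoderm 1, and by 2.56 and 2.23 in foregut endoderm 2 and mesoderm/ectoderm 2. For Actb the same difference was 8.48 and 8.88 in the samples numbered 1 and 3.18 and 2.83 in those numbered 2. This difference is a usual measure of how far labelling reached towards the 5′ end of a transcript. The polyadenylated bacterial transcripts dap, lys, phe and thr, which are spiked into the RNA as labelling controls, had a median of 12.94 and 12.48 in foregut endoderm 1 and mesoderm/ectoderm 1 against 8.92 and 8.19 in foregut endoderm 2 and mesoderm/ectoderm 2 over their 8 3′ probe sets. All of those 8 were dimmer in the samples numbered 2, by between -5.12 and -3.16 in foregut endoderm and between -5.46 and -3.60 in mesoderm/ectoderm. The 18 hybridization controls, which are added after labelling, differed by only -0.29 to 0.72 and -0.05 to 0.96. The 3′ to 5′ difference and the spiked signals thus moved with the dissection in both tissues, and their part in the results below was not tested.

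**Figure D1:**
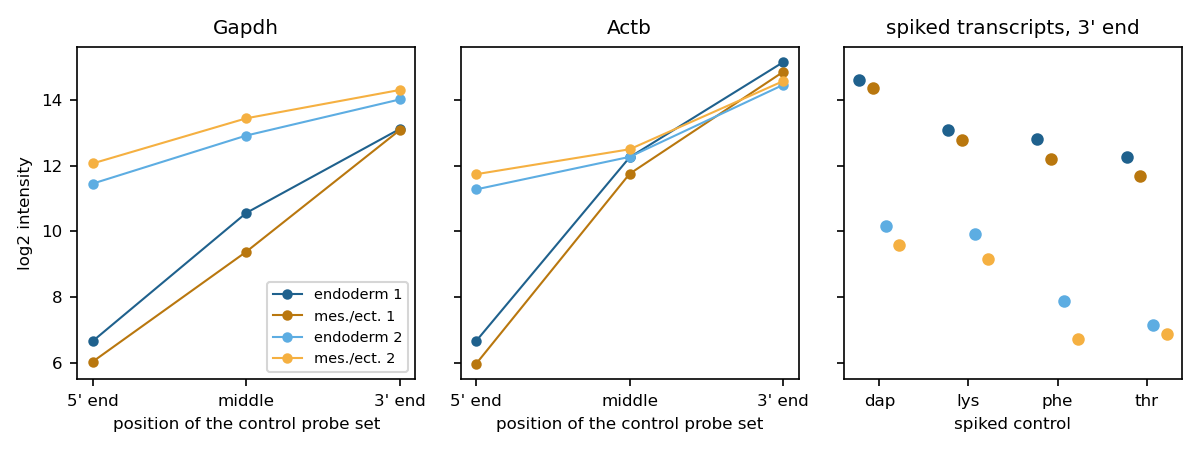
Log2 intensity of the control probe sets at the 5′ end, middle and 3′ end of Gapdh and Actb, and of 1 probe set at the 3′ end of each of the 4 spiked transcripts, with 1 point per array. The arrays numbered 2 are brighter at the 5′ ends and dimmer for every spiked transcript, in both tissues.

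At an adjusted p under 0.05, limma called 0 of 13288 probe sets (0%), and the lowest adjusted p was 0.0966. At an unadjusted p under 0.05, 2172 probe sets were higher and 1824 lower in the enzyme-assisted samples, where 664.4 would pass by chance. That count of 0 depended on scaling. Quantile normalization gave 1323 calls, of which 914 were higher (6.88%) and 409 lower (3.08%), and centring each array on its median gave 423, of which 340 were higher and 83 lower. On the 1 probe set per gene, quantile normalization called 489 genes higher (6.27%) and 157 lower (2.01%). Both scalings moved the median difference of all probe sets in mesoderm/ectoderm, from 0.00 to -0.12 and -0.11.

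Genes apart in the same direction in both tissues outnumbered those apart in opposite directions. Of 7802 genes, 871 were at least 2-fold higher in the enzyme-assisted sample of both tissues (11.2%) and 380 at least 2-fold lower in both (4.87%). In foregut endoderm, 1134 were higher (14.5%) and 966 lower (12.4%). In mesoderm/ectoderm, 1685 were higher (21.6%) and 848 lower (10.9%). Another 129 genes were lower in foregut endoderm and higher in mesoderm/ectoderm (1.65%), and 8 went the other way (0.103%). Over probe sets, the corresponding counts were 1521 higher in both (11.4%), 956 lower in both (7.19%), 175 lower in foregut endoderm and higher in the other tissue (1.32%), and 30 the reverse (0.226%). The count lower in both was 565 among probe sets above 5 on all 4 arrays, and 1657 when foregut endoderm 2 was left out and mesoderm/ectoderm 2 stood in for it, which sets mesoderm/ectoderm 2 against foregut endoderm 1 and so holds a difference between tissues. At 4-fold the shared side was uneven, with 233 genes higher and 25 lower in both. Across genes, which are not independent replicates and share the 4 arrays, the differences in the 2 tissues had a Pearson r of 0.47 and a Spearman rho of 0.63.

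**Figure D2:**
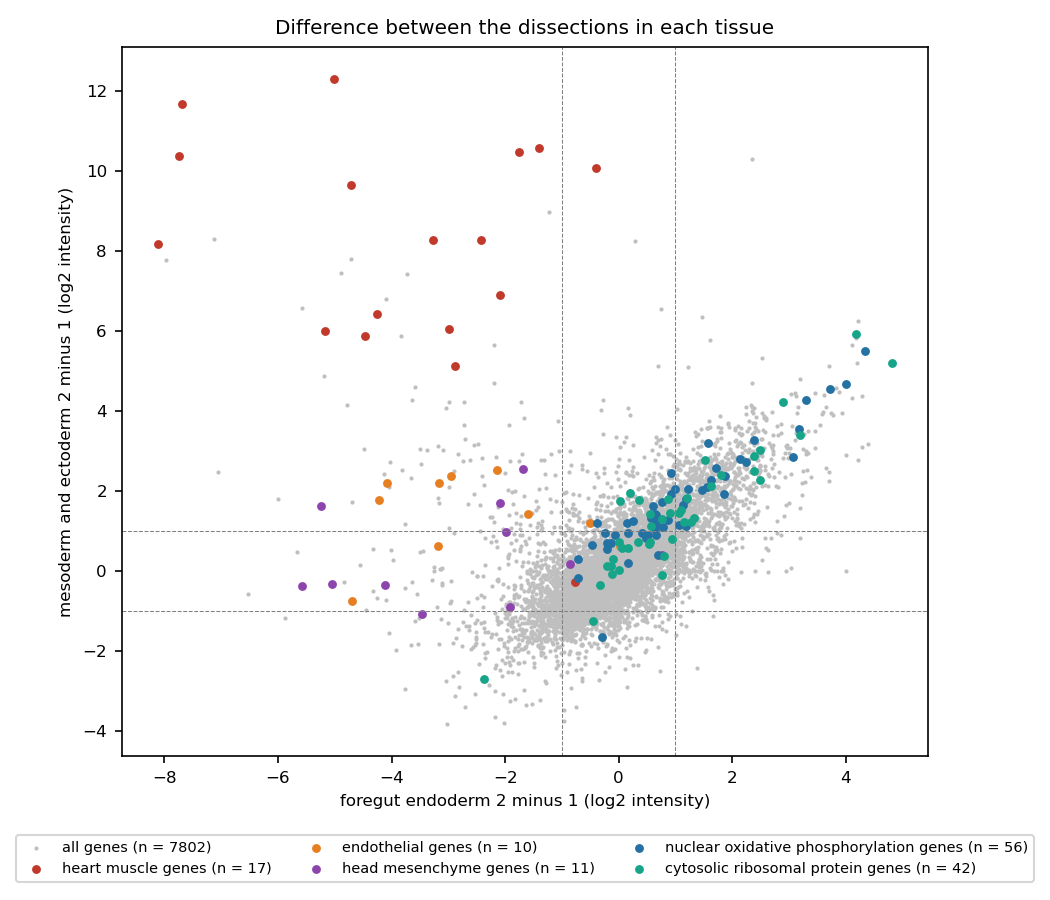
Log2 difference between the samples numbered 2 and 1 in foregut endoderm (horizontal) and in mesoderm/ectoderm (vertical), with 1 grey point per gene and 5 gene classes in colour. Dashed lines mark 2-fold; ribosomal and oxidative phosphorylation genes run along the diagonal to the upper right, while heart muscle genes lie at the upper left.

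The 10 shared genes with the smallest limma p among those at least 2-fold higher in both tissues were Fau, Rab24, Imp3, Rex1bd, Sf3b5, Phpt1, Tmem179b, Gtf2h5, Mif and Hsbp1. Fau encodes a ribosomal protein fused to a ubiquitin-like peptide, and it measured 7.73 and 7.69 in foregut endoderm 1 and mesoderm/ectoderm 1 and 12.54 and 12.90 in foregut endoderm 2 and mesoderm/ectoderm 2. Its shared difference was 5.01 ± 0.25 (SE, limma, 4 arrays). Rab24, a small GTPase, measured 4.43 and 4.33 in the samples numbered 1 and 8.72 and 8.73 in those numbered 2. Mif, a cytokine with tautomerase activity, measured 8.84 and 9.27 against 12.42 and 13.20. In each of the 10 genes both samples numbered 2 lay above both samples numbered 1, which the rule that chose these genes makes likely. Sf3b5 is a subunit of the spliceosome, Imp3 belongs to the machinery that processes ribosomal RNA, and Gtf2h5 is a subunit of the transcription and repair factor TFIIH. Their adjusted p was 0.0966 in each case by limma as deposited and 0.0322 after quantile normalization.

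The 10 shared genes on the lower side were Zfp207, Tmem209, Synj2bp, Dicer1, Pde4dip, Hba-a2, Bod1l, Rpl27a, Il6st and Fgfr2. Zfp207, a zinc finger protein of the mitotic spindle, measured 12.05 and 11.98 in foregut endoderm 1 and mesoderm/ectoderm 1 and 9.16 and 8.88 in foregut endoderm 2 and mesoderm/ectoderm 2. Its shared difference was -2.99 ± 0.23 (SE, limma, 4 arrays). Dicer1, which cuts microRNA precursors, measured 10.22 and 9.84 against 7.31 and 7.23. Fgfr2, a receptor for fibroblast growth factors, measured 9.24 and 10.38 against 6.72 and 7.32. Il6st, the shared receptor subunit of the interleukin-6 family, measured 9.13 and 7.60 against 5.36 and 4.65. Here too the samples of the dissections did not overlap, which the same rule of choice makes likely. All 20 of these shared genes passed limma after quantile normalization and after median centring, and none as deposited, where the adjusted p was 0.0966 for each. They were chosen by limma p on the same 4 arrays, so their passing after rescaling is no separate check. Dicer1, Il6st, Synj2bp and Tmem209 have other probe sets whose difference has the opposite sign.

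Cytosolic ribosomal protein genes were, as a class, higher in the enzyme-assisted samples. Of 79 listed, 44 had a probe set that names 1 gene, and 42 were measured. Among the 42, 17 were at least 2-fold higher in both tissues (40.5%, against 11.2% of all genes). Another 15 were within 2-fold in both, against 4557 of all 7802 genes. Lower in both was 1, Rpl27a (2.38%, against 4.87%). The median difference was 0.79 in foregut endoderm and 1.32 in mesoderm/ectoderm, against -0.01 and 0.04 over all genes. Rps15, a small subunit protein, measured 8.38 and 7.14 in foregut endoderm 1 and mesoderm/ectoderm 1 and 12.56 and 13.08 in foregut endoderm 2 and mesoderm/ectoderm 2. Rplp2, a stalk protein of the large subunit, measured 12.00 and 11.98 against 15.19 and 15.39. After quantile normalization 10 of the 42 passed as higher and 1 as lower, against 6.27% and 2.01% of all genes. The 24 measured ribosome biogenesis genes had medians of 0.05 and 0.59. Of these, 3 were higher in both tissues (12.5%, against 11.2% of all genes) and 0 lower, and 0 passed after quantile normalization. Probe sets of ribosomal protein genes can share sequence with pseudogene copies, so these values are uncertain for single genes.

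Nuclear genes for oxidative phosphorylation showed a like difference. Of 56 measured, 21 were at least 2-fold higher in both tissues (37.5%, against 11.2% of all genes) and 0 were lower in both. The medians were 0.67 and 1.38, and 46 had a positive difference in both, against 3066 of all 7802 genes. Uqcrh, a hinge protein of the cytochrome bc complex, measured 7.62 and 7.39 in foregut endoderm 1 and mesoderm/ectoderm 1 and 11.96 and 12.90 in foregut endoderm 2 and mesoderm/ectoderm 2. The ATP synthase subunits Atp5g2 and Atp5e differed by 4.00 and 3.73 in foregut endoderm and by 4.69 and 4.56 in mesoderm/ectoderm. After quantile normalization 15 of the 56 passed as higher and 0 as lower, against 6.27% and 2.01% of all genes. Of 73 measured mitochondrial ribosomal protein genes, a list drawn up after the values were seen, 35 were higher in both tissues (47.9%) and 0 lower.

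Proteasome subunits and glycolytic enzymes were less far apart. Of 31 proteasome subunits, 10 were higher in both tissues (32.3%, against 11.2% of all genes) and 0 lower. The medians were 0.60 and 1.06, the second of which was 0.70 after quantile normalization. Psmd3, a regulatory subunit, measured 8.24 and 7.47 in foregut endoderm 1 and mesoderm/ectoderm 1 and 9.99 in both samples numbered 2. Of 16 glycolysis genes, 3 (18.8%) were higher in both (Aldoa, Ldhb and Slc16a3), with medians of 0.42 and 1.02. Lactate exporter Slc16a3 measured 4.54 and 5.04 against 6.27 and 6.95. After quantile normalization 6 proteasome subunits and 2 glycolysis genes passed as higher, against 6.27% of all genes.

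Genes of the dividing cell stayed near the centre of all genes as classes, although single members did not. The medians of 38 DNA replication genes were -0.08 and -0.24, those of 39 mitosis genes -0.00 and -0.08, and those of 33 splicing factors -0.26 and -0.03. Tk1, thymidine kinase, measured 5.58 and 5.62 in foregut endoderm 1 and mesoderm/ectoderm 1 and 8.22 and 8.05 in foregut endoderm 2 and mesoderm/ectoderm 2. Plk1, a mitotic kinase, measured 7.52 and 7.76 against 9.50 and 9.56, while Smc2, a condensin subunit, measured 12.24 and 12.11 against 10.50 and 10.67. Replication genes were at least 2-fold higher in both tissues in 6 cases (15.8%) and lower in both in 1 (2.63%). For mitosis genes the counts were 3 (7.69%) and 1 (2.56%), and for splicing factors 4 (12.1%) and 2 (6.06%). Over all genes the shares were 11.2% and 4.87%.

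Zinc finger and deubiquitinating enzyme genes, both lists drawn up after the values were seen, had negative medians in both tissues. Of 198 genes named Zfp or Zbtb, 21 were at least 2-fold lower in both tissues (10.6%, against 4.87% of all genes) and 5 higher, with medians of -0.28 and -0.50. Of 37 ubiquitin-specific peptidase genes, 29 were within 2-fold in both tissues, 3 were lower in both (8.11%) and 0 higher, with medians of -0.55 and -0.38. Usp33 measured 8.98 and 9.01 in foregut endoderm 1 and mesoderm/ectoderm 1 and 7.49 and 7.29 in foregut endoderm 2 and mesoderm/ectoderm 2. These lists were chosen for how their members differed, so their counts are a description.

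**Figure D3:**
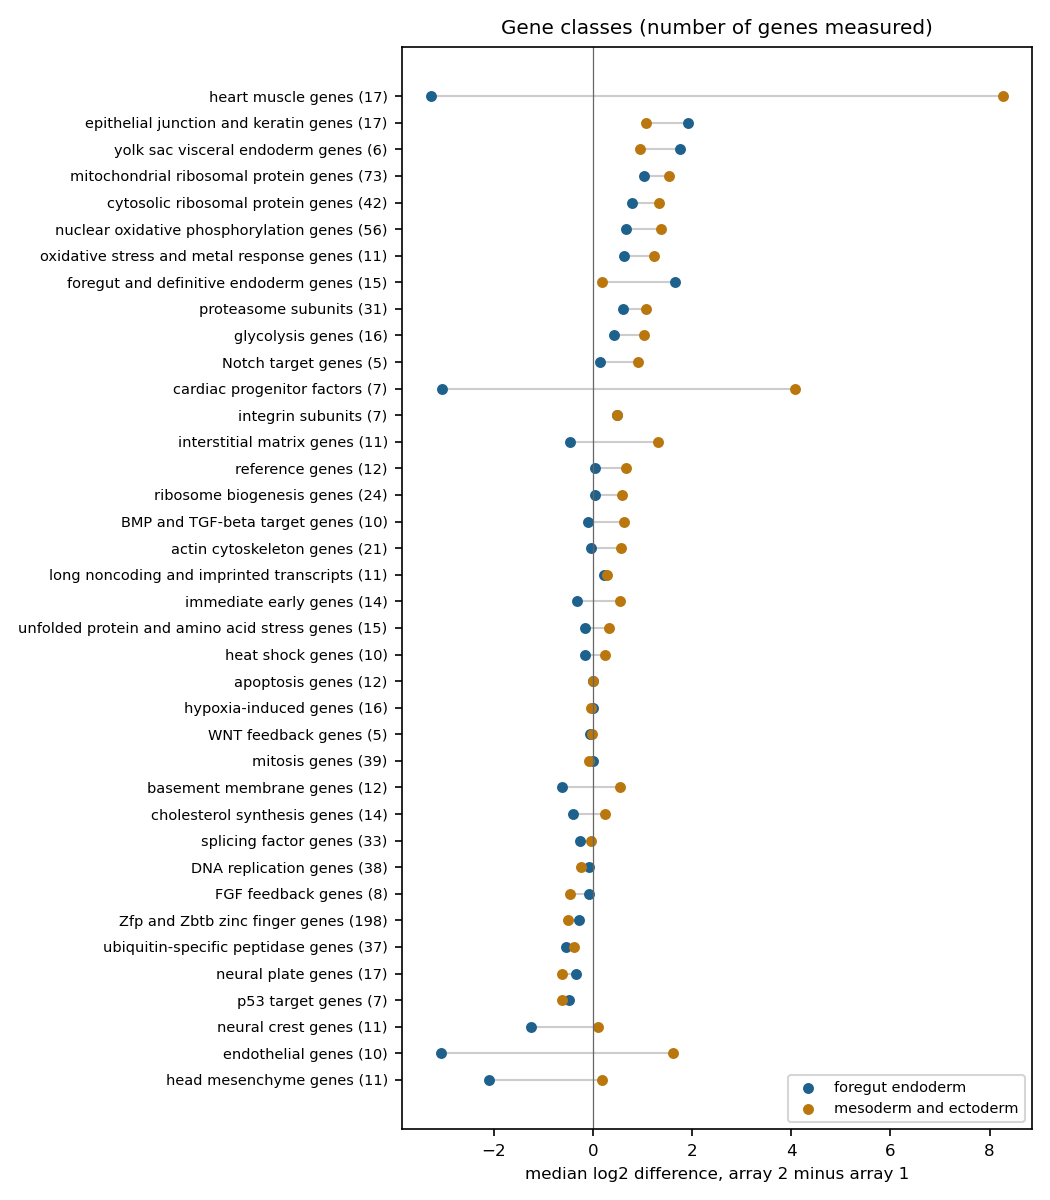
Median log2 difference (sample 2 minus sample 1) of each gene class with at least 5 measured genes, with 1 point for foregut endoderm and 1 for mesoderm/ectoderm, and the number of genes measured in brackets. The ribosomal protein, oxidative phosphorylation, proteasome and glycolysis classes have both points to the right of 0, the zinc finger and ubiquitin-specific peptidase classes both to the left, and the heart, cardiac progenitor and endothelial classes lie farthest apart on opposite sides.

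The shared differences followed the length of the gene in the genome (RefSeq, GRCm38.p6), which was known for 7785 genes. Genes at least 2-fold higher in both tissues had a median length of 9.61 kb, those lower in both 44.4 kb, and all genes 25.9 kb. Genes were ordered by length and divided into 5 bins of 1557. In the shortest bin, up to 9.04 kb, 26.8% were higher in both tissues and 2.25% lower in both, with median differences of 0.41 and 0.72. In the longest bin, from 73.5 kb, 2.76% were higher and 8.03% lower, with medians of -0.35 and -0.28. The order was unbroken over the 5 bins in both tissues. The median length was 3.45 kb for the cytosolic ribosomal proteins, 7.08 kb for oxidative phosphorylation, 12.4 kb for the proteasome, 20.3 kb for glycolysis and 57.2 kb for the ubiquitin-specific peptidases. The zinc finger genes went against this order, with negative median differences and a median length of 19.5 kb, below that of all genes. The part of gene length in the differences of these classes was not tested.

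**Figure D4:**
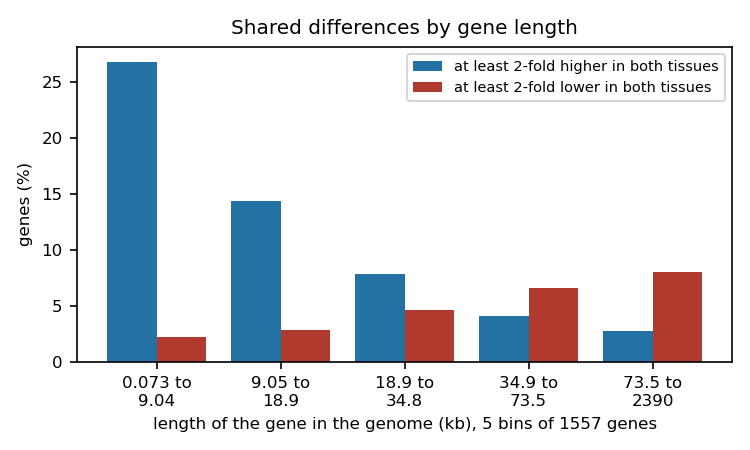
Percentage of genes at least 2-fold higher (blue) or lower (red) in both tissues in each of 5 equal bins of genes ordered by length in the genome. The share of higher genes goes from 26.8% in the shortest bin to 2.76% in the longest, and that of lower genes from 2.25% to 8.03%.

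Different probe sets of a gene could give different answers. Among 2720 genes with more than 1 kept probe set, the median range between a gene's probe sets was 0.83 log2 units in foregut endoderm and 1.00 in mesoderm/ectoderm. In 25 of these genes 1 probe set was at least 2-fold higher and another at least 2-fold lower in both tissues. For the splicing and paraspeckle protein Sfpq, 1 probe set had differences of 2.01 and 2.39 and another of -1.57 and -3.47. For Rrm2, the small subunit of ribonucleotide reductase, the differences were 1.33 and 1.30 on 1 probe set and -1.07 and -1.07 on another. Among 1389 probe sets with no symbol or several, 12.5% were at least 2-fold higher and 12.4% at least 2-fold lower in both tissues, against 11.4% and 7.19% of all probe sets. Sfpq and Rrm2 were chosen as examples after their values were seen.

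Of 26 immediate early genes, known to respond to tissue dissociation, 14 were measured, with medians of -0.32 and 0.54. In foregut endoderm 2 of the 14 were at least 2-fold higher and 2 lower, in mesoderm/ectoderm 6 were higher and 0 lower, and 2 were higher in both tissues (14.3%, against 11.2% of all genes). Ier2 measured 6.06 and 4.69 in foregut endoderm 1 and mesoderm/ectoderm 1 and 7.80 and 7.39 in foregut endoderm 2 and mesoderm/ectoderm 2. Ccn1, a matrix-associated signalling protein, measured 8.08 and 5.57 against 9.47 and 7.30, so that its groups overlapped across tissues while it was higher in both; its 4 probe sets differ in sign. Fos, the best-known gene of the class, was lower in foregut endoderm by -0.80 and higher in mesoderm/ectoderm by 1.47, and Egr1 differed by -0.74 and 0.14. After quantile normalization Ier2 and Ccn1 were the 2 members of 14 that passed, against 6.27% of all genes passing as higher. Over all genes 14.5% were at least 2-fold higher in foregut endoderm and 21.6% in mesoderm/ectoderm.

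Heat shock genes gave medians of -0.16 and 0.24 over 10 measured, and 0 were higher in both tissues. The constitutive chaperone Hspa8 measured 14.88 and 14.84 in foregut endoderm 1 and 2 and 14.34 and 14.82 in mesoderm/ectoderm 1 and 2. Cryab, a small heat shock protein abundant in heart muscle, differed by -1.23 and 8.98. Hspa1b differed by -1.54 and 0.00. The medians of 16 hypoxia genes were 0.01 and -0.04, those of 12 apoptosis genes -0.01 and -0.00, those of 15 unfolded protein response genes -0.17 and 0.32, and those of 7 p53 targets -0.48 and -0.63. With the mean over all probe sets of a gene, the p53 median in foregut endoderm was 0.46. Of the 16 hypoxia genes 11 were within 2-fold in both tissues and 4 were at least 2-fold higher in mesoderm/ectoderm, against 21.6% of all genes. Among the 4 was P4ha1, a collagen prolyl hydroxylase, by 3.36. Ankrd37 was the 1 member higher in both, at 5.36 and 5.01 in foregut endoderm 1 and mesoderm/ectoderm 1 and 7.72 and 7.65 in foregut endoderm 2 and mesoderm/ectoderm 2.

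The metallothioneins, small proteins that bind zinc and copper, were much higher in the enzyme-assisted samples. Mt1 measured 7.36 and 6.33 in foregut endoderm 1 and mesoderm/ectoderm 1 and 10.34 and 9.17 in foregut endoderm 2 and mesoderm/ectoderm 2, and Mt2 measured 7.50 and 7.63 against 11.50 and 10.54. With the peroxidase Gpx1 (1.89 and 2.13) and thioredoxin Txn1 (1.30 and 1.24) they made up the 4 of 11 oxidative stress and metal response genes higher in both tissues (36.4%, against 11.2% of all genes). Of the 4, 3 passed limma after quantile normalization, with an adjusted p of 0.0322 for Mt1 and 0.0366 for Mt2. Over all genes 6.27% passed as higher. The class medians were 0.63 and 1.24, and the second was 0.80 after quantile normalization; with no filter, over 14 genes, they were 0.02 and 0.25. The median length of these genes was 10.3 kb, and Mt2 spans 0.95 kb, at the short end of the scale. The pancreatic digestive enzymes themselves were not found as transcripts: 0 of 11 with a probe set passed the filter, and the brightest, Prss2, reached 5.51 in foregut endoderm 2.

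Heart muscle genes differed in opposite directions in the tissues. Of 17 measured, 15 were at least 2-fold lower in foregut endoderm 2 than in foregut endoderm 1 and at least 2-fold higher in mesoderm/ectoderm 2 than in mesoderm/ectoderm 1. Over all genes 1.65% had this pattern. The class medians were -3.27 and 8.28. The medians depended on how low values were treated: they were -1.70 and 6.09 over all 28 listed genes with no filter, -1.75 and 6.44 with values below 5 raised to 5, and -2.51 and 3.09 over the 2 genes above 5 on all 4 arrays. A heart gene low on 2 arrays passed the filter only through the other two, so the count of 15 describes the genes that passed. Ttn, the giant spring protein of the sarcomere, measured 10.94 in foregut endoderm 1, 2.83 in foregut endoderm 2, 2.76 in mesoderm/ectoderm 1 and 10.93 in mesoderm/ectoderm 2. Tnnt2, cardiac troponin T, measured 10.84, 3.16, 2.51 and 14.20 in the same order. Actc1, cardiac actin, measured 12.56, 4.82, 3.69 and 14.08. In each of these the high samples were foregut endoderm 1 and mesoderm/ectoderm 2, and the other two lay near the bottom of the scale. The 2 exceptions among the 17 were Myl3, within 2-fold in foregut endoderm (6.93 and 6.53) but 2.42 and 12.50 in mesoderm/ectoderm, and the calcium pump Atp2a2, which differed by -0.77 and -0.25. Another 11 listed heart genes did not pass the filter, of which Nppa reached 9.06 in mesoderm/ectoderm 2 only. The difference between the tissues was not tested, as an interaction term leaves no residual degree of freedom.

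**Figure D5:**
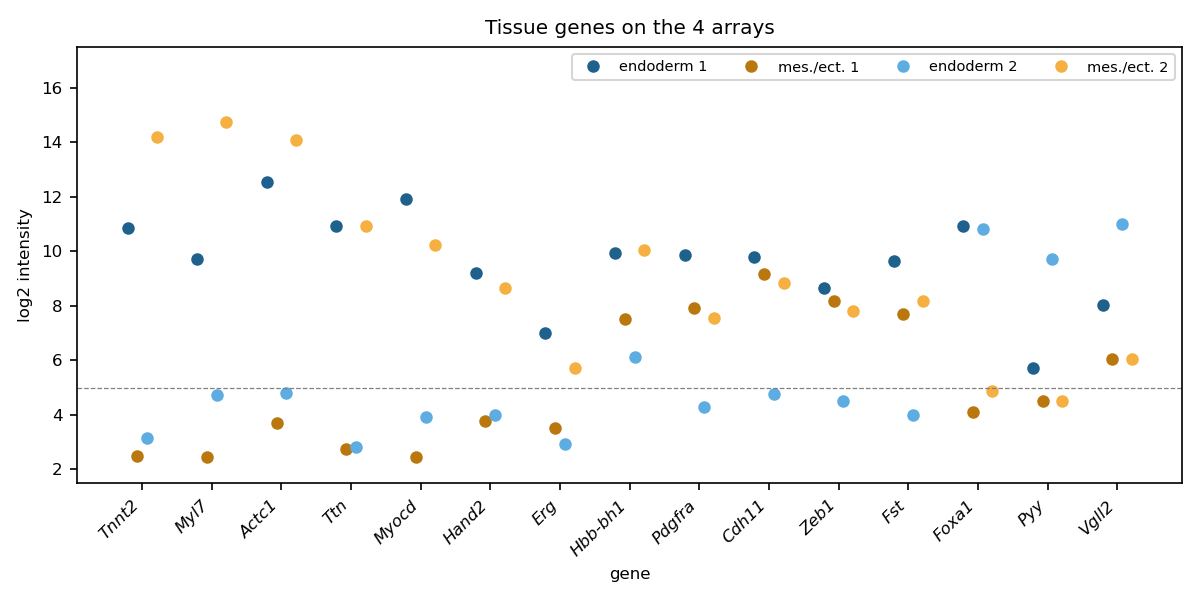
Log2 intensity of 15 tissue genes on the 4 arrays, 1 point per array, with the dashed line at the filter of 5. For the heart genes at the left, foregut endoderm 1 and mesoderm/ectoderm 2 are high; for Pdgfra, Cdh11, Zeb1 and Fst only foregut endoderm 2 lies below 5.

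The CArG box, the binding motif of serum response factor, was searched by that name on both strands within 250 bases before the start. It was held by 6 of 32 RefSeq promoter entries of the listed heart muscle genes (18.8%), against 482 of all 32851 entries (1.47%). Among the 16 measured heart genes with an entry, 4 held it, and these are shown because Actc1, Myl7 and Ldb3 have the opposite pattern while Myl3 differed in mesoderm/ectoderm alone; stretches of 100 bases are printed 5′ to 3′ on the gene's strand (RefSeq, GRCm38.p6), with the box in capitals. The Actc1 stretch is chr2:114052876-114052975 on the minus strand, that of Myl7 chr11:5898789-5898888 on the minus strand, that of Myl3 chr9:110763548-110763647 on the plus strand and that of Ldb3, a Z-disc protein, chr14:34588682-34588781 on the minus strand.
Actc1: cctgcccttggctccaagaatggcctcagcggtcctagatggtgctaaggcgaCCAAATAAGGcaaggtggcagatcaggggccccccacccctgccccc
Myl7: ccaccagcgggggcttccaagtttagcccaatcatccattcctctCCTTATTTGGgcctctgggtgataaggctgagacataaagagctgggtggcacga
Myl3: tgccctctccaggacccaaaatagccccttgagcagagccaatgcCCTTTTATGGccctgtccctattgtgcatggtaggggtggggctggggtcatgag
Ldb3: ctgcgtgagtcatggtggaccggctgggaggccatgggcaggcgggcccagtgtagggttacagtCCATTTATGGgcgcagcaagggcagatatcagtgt
A match is a description of these letters and says nothing about binding. Ldb3 measured 7.71 in foregut endoderm 1, 2.53 in foregut endoderm 2, 2.74 in mesoderm/ectoderm 1 and 8.76 in mesoderm/ectoderm 2, with the same high samples as Actc1.

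Regulators of the heart field and cells of the vessel wall followed the muscle genes in part. Of 7 measured cardiac progenitor factors, 4 were lower in foregut endoderm and higher in mesoderm/ectoderm (Gata5, Hand2, Mef2c and Myocd), against 1.65% of all genes. Another 8 did not pass the filter, so the count of 4, like that of the muscle genes, describes the genes that passed. The class medians were -3.05 and 4.08. These medians were -0.02 and 1.88 over all 15 listed factors with no filter, and -0.61 and 2.47 with values below 5 raised to 5. Myocd, a coactivator of serum response factor, measured 11.91, 3.94, 2.46 and 10.24 in foregut endoderm 1 and 2 and mesoderm/ectoderm 1 and 2. Nkx2-5, a homeodomain factor also found in pharyngeal endoderm, was instead higher in both tissues, at 5.50, 7.66, 3.71 and 6.91. Tbx20 was nearly level in foregut endoderm, at 9.65 and 9.93, and measured 2.85 and 11.10 in mesoderm/ectoderm. The muscle chaperone Unc45b and the Nodal coreceptor Tdgf1, which showed the same opposite pattern, measured 9.57, 2.45, 2.45 and 10.76, and 7.85, 2.27, 2.58 and 9.17.

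Endothelial genes had medians of -3.06 and 1.61 over 10 measured. Of these, 6 were lower in foregut endoderm and higher in mesoderm/ectoderm, against 1.65% of all genes. Another 10 with a probe set did not pass the filter. A gene low on 2 arrays passed only through the other arrays, so the count of 6 describes the genes that passed. With no filter, over 20 genes, the medians were -1.69 and 1.16; with values below 5 raised to 5 they were -1.47 and 1.10; and over the 2 genes above 5 on all 4 arrays they were -0.25 and 0.92. Kdr, a receptor for vascular endothelial growth factor, measured 7.88 and 3.65 in foregut endoderm 1 and 2 and 4.78 and 6.57 in mesoderm/ectoderm 1 and 2. Fli1 was lower in foregut endoderm 2, at 2.56 against 7.26, and differed by -0.74 in mesoderm/ectoderm. Hbb-bh1 and Hbb-y, globins of primitive red cells, measured 9.93 and 10.45 in foregut endoderm 1, 6.11 and 6.97 in foregut endoderm 2, 7.51 and 7.73 in mesoderm/ectoderm 1 and 10.04 and 10.41 in mesoderm/ectoderm 2. The 3 measured red blood cell genes had medians of -3.48 and 2.52, and all 11 with a probe set had 0.02 and 0.07. Of the 3, 2 were in opposite directions, and the other differed by 0.66 in foregut endoderm and 0.42 in mesoderm/ectoderm. Hba-a2, a globin gene that is not among the 3, did not follow Hbb-bh1 and Hbb-y. It measured 5.56 and 6.16 in foregut endoderm 1 and mesoderm/ectoderm 1 and 2.54 and 2.34 in foregut endoderm 2 and mesoderm/ectoderm 2. Of the leukocyte markers, 1 of 15 was measured, and Ptprc lay at 2.25 to 2.28 on all arrays.

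The count of probe sets in opposite directions was 205 with all 4 arrays and 64 among probe sets above 5 on all 4. When an array was left out, the other array of its dissection served both tissues, so that 1 of the differences became one between tissues and the count is not a check on that array. It was 66 when foregut endoderm 1 was dropped, 89 for foregut endoderm 2, 142 for mesoderm/ectoderm 1 and 47 for mesoderm/ectoderm 2. Of the 8 genes higher in foregut endoderm and lower in mesoderm/ectoderm, Kcnq1ot1, an imprinted noncoding transcript, measured 7.05 and 8.44 in foregut endoderm 1 and 2 and 6.92 and 4.50 in mesoderm/ectoderm 1 and 2. Otx2, a head organizer factor, measured 8.23, 9.88, 10.91 and 9.80. Rgs16, a regulator of G protein signalling, measured 5.58, 6.77, 7.68 and 6.33. Ltbp3, Mpzl2 and Gramd1b differed by 1.02 to 1.10 in foregut endoderm and by -1.59 to -1.12 in mesoderm/ectoderm. Kcnq1ot1 and Mpzl2 each have 2 probe sets that differ in sign.

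Head mesenchyme genes were lower in foregut endoderm 2 than in foregut endoderm 1. Of 11 measured, 9 were at least 2-fold lower in foregut endoderm, against 12.4% of all genes, and 1 of these, Zeb2, was lower in mesoderm/ectoderm too. The medians were -2.09 and 0.17. Pdgfra, the receptor for platelet-derived growth factor A, measured 9.86 in foregut endoderm 1, 4.28 in foregut endoderm 2, 7.91 in mesoderm/ectoderm 1 and 7.55 in mesoderm/ectoderm 2. Cdh11, a mesenchymal cadherin, measured 9.81, 4.76, 9.18 and 8.86 in the same order. Twist1, a mesenchymal transcription factor, measured 7.81, 2.57, 5.64 and 7.28. In Pdgfra and Cdh11 the 1 low sample was foregut endoderm 2.

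The 6 genes with the largest difference in foregut endoderm and within 0.5 log2 units in the other tissue, on the lower side, were Fst, Pdgfra, Cdh11, Foxd1, Vegfc and Bcat1. The activin antagonist Fst measured 9.64 and 3.98 in foregut endoderm 1 and 2 and 7.71 and 8.18 in mesoderm/ectoderm 1 and 2. The lymphatic growth factor Vegfc measured 9.52, 4.96, 8.91 and 9.08. In all, 31 genes met this pattern at 4-fold on the lower side and 7 on the higher. The adjusted p of these genes by limma lay between 0.27 and 0.41. The rule that chose them makes a large p likely, because limma counts a disagreement between the tissues as spread. Whether the tissues differed was not tested.

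On the higher side in foregut endoderm the leading 6 were Pyy, Cltrn, Vgll2, Srrd, Smim10l2a and Rhox5. The gut hormone gene Pyy measured 5.72 and 9.72 in foregut endoderm 1 and 2 and 4.50 and 4.51 in mesoderm/ectoderm 1 and 2. Vgll2, a cofactor of TEAD factors found in pharyngeal endoderm, measured 8.05, 11.00, 6.05 and 6.05. Cltrn measured 6.79, 9.83, 2.63 and 2.71. Pyy and Cltrn lay below 5 in mesoderm/ectoderm, where a difference is at best a bound, and whether the tissues differed was not tested.

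In mesoderm/ectoderm, 40 genes were at least 4-fold higher and 13 at least 4-fold lower while foregut endoderm was within 0.5. The largest on the higher side were Myl3, Tbx20, Cgnl1, Tgfb2, Crabp1 and Lgals1. The growth factor Tgfb2 measured 9.31 and 9.47 in foregut endoderm 1 and 2 and 2.51 and 6.60 in mesoderm/ectoderm 1 and 2. The retinoic acid binding protein Crabp1 measured 7.06, 6.76, 6.24 and 10.27. On the lower side were Ano1, Rbm39, Slc25a17, Sgpp2, Gdap10 and Slc15a2. Rbm39, a splicing factor, measured 10.71, 10.36, 10.76 and 8.05, and its 11 probe sets differ in sign. Whether the tissues differed in these genes was not tested.

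Endoderm and epithelial genes were higher in foregut endoderm 2. Of 15 measured endoderm genes, 11 were at least 2-fold higher in foregut endoderm and 0 lower, against 14.5% and 12.4% of all genes. In mesoderm/ectoderm 5 were higher and 1 lower, against 21.6% and 10.9%. The 4 higher in both compare with 11.2% of all genes, and the medians were 1.65 and 0.18. Pax9, a factor of the pharyngeal pouches, measured 8.81 and 10.50 in foregut endoderm 1 and 2 and 2.31 and 2.32 in mesoderm/ectoderm 1 and 2. Shh, the secreted hedgehog ligand, measured 10.20, 11.88, 7.05 and 8.17. Foxa1 and Sox17 did not follow, with differences of -0.10 and -0.51 in foregut endoderm.

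Epithelial junction and keratin genes were higher in both tissues in 7 of 17 cases (41.2%, against 11.2% of all genes). The medians were 1.92 and 1.08, and with no filter, over 24 genes, the second was 0.57. Krt18, a simple-epithelial keratin, measured 9.39 and 12.10 in foregut endoderm 1 and 2 and 5.06 and 8.46 in mesoderm/ectoderm 1 and 2. Epcam, an adhesion molecule of epithelia, measured 9.26, 11.74, 6.38 and 9.04. Cdh1, the epithelial cadherin, measured 10.28 and 11.73 in foregut endoderm but 7.52 and 7.67 in mesoderm/ectoderm. Of the 17, 6 passed as higher after quantile normalization, against 6.27% of all genes. Hhex, a homeodomain factor of foregut and liver precursors, measured 7.05, 9.58, 3.76 and 6.64. Of 6 measured yolk sac genes, 2 were higher in both tissues, with medians of 1.76 and 0.94, and these were 0.02 and 0.00 over all 17 with a probe set and no filter. The 2 genes, Ttr and Spink1, measured 9.76 and 8.54 in foregut endoderm 1, 12.13 and 11.59 in foregut endoderm 2, 3.06 and 2.70 in mesoderm/ectoderm 1 and 7.03 and 6.34 in mesoderm/ectoderm 2. Dab2, another gene of the list, was instead lower in foregut endoderm 2, by -1.73, and higher by 0.91 in mesoderm/ectoderm. The part of endoderm and yolk sac cells in the results was not tested.

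Matrix genes encode proteins that anchor cells to their surroundings. The 11 interstitial matrix genes had medians of -0.47 and 1.32. In mesoderm/ectoderm 7 of the 11 were at least 2-fold higher and 0 lower, against 21.6% and 10.9% of all genes. In foregut endoderm 1 was higher and 3 were lower, against 14.5% and 12.4%. Of the 11, 2 were at least 2-fold lower in foregut endoderm and higher in mesoderm/ectoderm, against 1.65% of all genes. Col3a1, a fibrillar collagen, measured 8.52 and 2.52 in foregut endoderm 1 and 2 and 4.98 and 6.78 in mesoderm/ectoderm 1 and 2. Hapln1, which links hyaluronan to proteoglycans in the cardiac jelly, measured 9.41, 5.37, 7.57 and 9.68. Col1a2 was the 1 member higher in both, by 1.54 and 1.32.

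The 12 basement membrane genes had medians of -0.63 and 0.54, and 0 were higher or lower in both tissues. Lama1, a laminin chain, measured 8.01, 6.01, 5.12 and 6.08 in foregut endoderm 1 and 2 and mesoderm/ectoderm 1 and 2. Of 7 measured integrin subunits, 0 were 2-fold higher in both tissues or 2-fold lower in both. Integrin Itga6 was lower by -0.96 and -1.26 and Itgb1 differed by -0.71 and 0.48. Among 21 actin cytoskeleton genes, 5 were higher in both (23.8%, against 11.2% of all genes). Pfn1, which promotes actin assembly, measured 7.98 and 7.74 in foregut endoderm 1 and mesoderm/ectoderm 1 and 10.31 and 11.90 in foregut endoderm 2 and mesoderm/ectoderm 2. Tpm1, a tropomyosin also used in the sarcomere, differed by 2.35 and 10.31.

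Signalling readouts rested on few genes per pathway. Of 10 targets of BMP and TGF-beta signalling, 3 were at least 2-fold higher in both tissues (30%, against 11.2% of all genes). The same 3 passed after quantile normalization, where 6.27% of all genes passed as higher. The pseudoreceptor Bambi measured 6.86 and 4.55 in foregut endoderm 1 and mesoderm/ectoderm 1 and 10.31 and 9.00 in foregut endoderm 2 and mesoderm/ectoderm 2. Id1 and Id3, inhibitors of basic helix-loop-helix factors, differed by 3.71 and 2.81 in foregut endoderm and by 2.50 and 2.10 in mesoderm/ectoderm. The class medians were -0.11 and 0.63, and Id2 and Id4 differed by -0.23 and -0.27 in foregut endoderm and by -0.04 and -1.73 in mesoderm/ectoderm. Id1 spans 1.16 kb and Id3 1.57 kb.

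Feedback genes of FGF signalling had medians of -0.07 and -0.47 over 8 measured, with Dusp4 the 1 higher in both, by 1.02 and 1.83. Spry1, an FGF antagonist, was level in foregut endoderm at 7.90 and 7.83 and measured 7.48 and 5.54 in mesoderm/ectoderm 1 and 2. The 5 WNT feedback genes had medians of -0.07 and -0.01, but Sp5 measured 4.84 and 7.48 in foregut endoderm 1 and 2 and 4.83 and 5.38 in mesoderm/ectoderm 1 and 2. Of 4 measured genes on the hedgehog list, the coreceptor Cdon was lower in both, by -1.42 and -1.87, and the receptor Ptch1 differed by -0.30 and -0.19. Whether hedgehog output differed was not tested. Of 5 Notch targets, Hes1 was higher in both (1.40 and 1.15) and Hes5 lower in both (-2.52 and -1.84). The retinoic acid response gene Crabp2 measured 7.99 and 9.58 in foregut endoderm 1 and mesoderm/ectoderm 1 and 10.46 and 12.14 in foregut endoderm 2 and mesoderm/ectoderm 2.

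Neural genes were lower in both tissues in 2 of 17 measured (11.8%, against 4.87% of all genes) and higher in 1 (5.88%, against 11.2%). In mesoderm/ectoderm 6 were at least 2-fold lower and 1 higher, against 10.9% and 21.6% of all genes. In foregut endoderm 5 were lower and 4 higher, against 12.4% and 14.5%. The medians were -0.34 and -0.63, and the first was 0.62 over the 6 genes above 5 on all 4 arrays. Sox1, an early neural plate factor, measured 6.07 and 3.31 in foregut endoderm 1 and 2 and 7.91 and 6.04 in mesoderm/ectoderm 1 and 2. Hes5, a Notch target of neural progenitors, measured 8.02, 5.50, 9.84 and 7.99. Hesx1, a homeobox gene of the anterior head, was higher in both, at 4.49, 7.40, 8.12 and 9.52. Sox1 and Hes5 passed as lower after quantile normalization, where 2.01% of all genes passed as lower. Neural crest genes had medians of -1.26 and 0.11 over 11 measured, and these were -0.80 and -0.10 after quantile normalization. Tfap2a, which specifies crest, measured 8.29 and 4.78 in foregut endoderm 1 and 2 and 10.42 and 9.27 in mesoderm/ectoderm 1 and 2. The 4 measured surface ectoderm and placode genes had medians of -0.82 and -0.72, and 0 were 2-fold apart in both tissues.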

How the data were processed

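The authors deposited intensity values per probe set that had been normalized by GC-RMA (GenePattern), as the series' design text says; the submitters' processing notes name RMA. Its version and parameters are not given in the sources used. A linear scale was inferred from the range of values (4.75 to 75547) and log2 was taken here. Probe sets of 64 Affymetrix controls did not enter any test. Symbols came from GEO's platform annotation, updated by gene identifier through RefSeq (GRCm38.p6): 34958 probe sets had 1, 932 had several and stay unnamed, and 9211 had none. limma 3.58.1 in R 4.3.3 (lmFit, eBayes, two-sided, Benjamini-Hochberg over 13288 probe sets, threshold 0.05) compared the dissections with tissue as a term, and was tested on simulated data. With 4 arrays, their number limits the precision. Values below 5 are dim and a difference against them is at best a bound. Genes were named by rank of limma p or of the difference in each pattern, and up to 4 per list by the largest mean difference; other list members are given as defining markers or were chosen after their values were seen. The members and lists were chosen with earlier results of these data known. Alternatives were scaling, filters, a floor, the tissue term, a trend, the mean over probe sets and leaving out each array.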

Additional observations from a re-analysis of the deposited data

Results flagged for a closer look

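In 4 cell type classes with at least 3 measured genes the median difference between the dissections was at least 2-fold in each tissue and of opposite sign: each tissue has 1 array per dissection, and the difference between the tissues was not tested. Heart muscle genes had a median difference of -3.27 in foregut endoderm and 8.28 in mesoderm/ectoderm. Cardiac progenitor factors had -3.05 and 4.08, endothelial genes -3.06 and 1.61, and red blood cell genes -3.48 and 2.52. Of the 3 measured red blood cell genes, 2 were in opposite directions. With values below 5 raised to 5 the heart muscle medians were -1.75 and 6.44, those of the cardiac progenitor factors -0.61 and 2.47, and those of the endothelial genes -1.47 and 1.10. Other classes had medians of opposite sign that were under 2-fold in at least 1 tissue, among them interstitial matrix genes (-0.47 and 1.32), head mesenchyme genes (-2.09 and 0.17), neural crest genes (-1.26 and 0.11) and basement membrane genes (-0.63 and 0.54).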

How the results depend on the processing

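The limma count of 0 became 1323 after quantile normalization and 423 after median centring. It stayed 0 without a filter, with a filter at 6, with all 4 arrays above 5, with low values raised to 5, without the tissue term, with an intensity trend, and with each array left out without the tissue term. The cause of that change was not tested. With all 4 arrays above 5, fewer probe sets are counted: 565 were lower in both tissues and 64 in opposite directions, and the yolk sac median in foregut endoderm, 1.76 over 6 genes, became the -1.73 of the 1 gene left. With no filter the red blood cell median in foregut endoderm went from -3.48 over 3 genes to 0.017 over 11. Of 86 class medians, 40 moved by over 1.5 times and by over 0.1 log2 units with no filter. The count was 20 after quantile normalization, 18 with the mean over probe sets, 13 with all 4 arrays above 5, 12 after median centring, 10 with a filter at 6 and 9 with low values raised to 5. Those counts leave out the yolk sac and red blood cell changes above but hold others that changed sign. With the mean over probe sets, the p53 median in foregut endoderm went from -0.48 to 0.46 and the noncoding median in mesoderm/ectoderm from 0.28 to -0.30. With all 4 arrays above 5, the neural median in foregut endoderm went from -0.34 to 0.62. Leaving out each array, with the other array of its dissection in its place, gave 1481 to 1985 higher in both, 1083 to 1657 lower in both and 47 to 142 in opposite directions; such counts hold a difference between tissues by construction. For class medians an array left out leaves only the other tissue's value, so none was computed. No fit with the replicate number as a further block was made, because tissue, which the fit already holds, is what pairs the samples. Signal limits the rest: between 41.3% and 44.7% of each array's probe sets lay within 0.1 log2 units of its lowest value.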

Other observations

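Of 12 measured genes often used as references, 9 were within 2-fold in both tissues and 3 were at least 2-fold higher in both (25%, against 11.2% of all genes), with medians of 0.05 and 0.66. Polr2a, the largest subunit of RNA polymerase II, measured 6.40 and 6.21 in foregut endoderm 1 and mesoderm/ectoderm 1 and 9.14 and 8.88 in foregut endoderm 2 and mesoderm/ectoderm 2, with an adjusted p of 0.0323 by limma after quantile normalization. B2m and Rplp0 differed by 1.33 and 1.63 in foregut endoderm and by 2.57 and 2.14 in mesoderm/ectoderm. Tbp was lower, by -0.98 and -0.66, and Ywhaz differed by -0.47 and -0.06.

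Noncoding and imprinted transcripts split. Of 11 measured, 2 were higher in both tissues (Gas5 and Igf2) and 2 lower in both (Malat1 and Miat). Each count was 18.2%, against 11.2% and 4.87% of all genes. The nuclear transcript Malat1 measured 10.83 and 9.72 in foregut endoderm 1 and mesoderm/ectoderm 1 and 9.30 and 6.41 in foregut endoderm 2 and mesoderm/ectoderm 2, and its 5 probe sets differ in sign. The growth factor gene Igf2 measured 10.86 and 8.02 against 12.42 and 11.60. Of the Hox genes, 1 of 23 with a probe set was measured, Hoxa5, which differed by -0.00 and -0.24.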
